A study of Mus musculus with 4 samples.

Results

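The genes described here are 39 that encode the DNA replication machinery, picked by gene name out of the 22266 genes of an expression table from mouse embryonic stem cells. They cover origin binding and licensing (Orc1, Orc2, Orc6, Cdc6, Cdt1 and the inhibitor Gmnn), the MCM2-7 helicase ring, its activators (Cdc45, Gins1 to Gins4 and Mcm10), DNA polymerases and primase, the sliding clamp and its loader, single-strand binding and Okazaki fragment joining, and the supply of deoxynucleotides. All 39 were found in the table, and all had a mean of at least 1 TPM and were tested. The genes were picked by name alone, but the list was made with earlier results of these data known. Its shares beside the background are therefore descriptions.

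Each chromosome is copied once per cell cycle from origins that are licensed in G1, when the origin recognition complex, CDC6 and CDT1 load a double ring of MCM2-7. In S phase CDC45 and GINS turn the ring into a running helicase, polymerase alpha-primase lays down primers, and the clamp PCNA, loaded by RFC, holds polymerases delta and epsilon on the template. Embryonic stem cells divide fast, with a short G1, and are known for high levels of licensing factors. Many of the genes are textbook targets of E2F, the transcription factor family that acts at the G1 to S transition.

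Poly(A) RNA was sequenced from female PGK12.1-derived stem cells grown in serum with leukemia inhibitory factor, whose Cbx2 alleles are both floxed and HaloTag-fused. CBX2 is a chromodomain subunit of Polycomb repressive complex 1. The OHT group (genotype label Knockout, 2 libraries, day 2) had received 1.0 µM 4-hydroxytamoxifen for 48 hours to delete Cbx2, and the EtOH group (genotype label Wildtype, 2 libraries, day 0) had received ethanol. All 4 libraries are labelled batch 2. The labels name no recombinase and no deleted exon, and no library used here combines 4-hydroxytamoxifen with intact Cbx2, so effects of the deletion, of the drug and of days in culture cannot be told apart. The labels do not say whether the replicates were separate cultures, so p-values here reflect the spread between libraries, which may be technical only. The unit throughout is the authors' TPM, a length-corrected share of each library's transcripts that keeps no depth. The depth behind each value is therefore unknown. In bulk RNA, fewer cells in S phase and less RNA per cell cannot be told apart.

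Cbx2 itself read 0.749 and 1.14 TPM in the OHT libraries, against 2.29 and 2.71 TPM in the EtOH libraries (log2 fold change -0.85, SE 0.19, limma adjusted p = 0.265), with no overlap of the groups, and was the lower in OHT, as the labels say. Of 12 embryonic stem cell markers, all were expressed, with summed levels of 11860 to 13076 TPM with OHT and 10204 to 10270 TPM with EtOH. Most of the gap in that sum was Dppa5a, at 7089 and 5623 TPM with OHT and 4733 and 4612 TPM with EtOH. Of the 12, 7 had both OHT libraries over the EtOH pair and 2 had them under it, Fbxo15 (log2 fold change -0.30) and Utf1 (-0.24), and none passed the adjusted threshold in limma. Of 12 fibroblast and feeder markers, 2 had a mean of at least 1 TPM and 2 were listed at 0 in every library. Vim, which stem cells also make, held most of the list's level and read 208 and 228 TPM with OHT and 273 and 267 TPM with EtOH (log2 fold change -0.31, limma adjusted p = 0.362), while the sum of the other 11 was 9.21 to 13.5 TPM with OHT and 6.60 to 7.90 TPM with EtOH. The 12 primitive endoderm markers summed to 41.4 to 62.2 TPM with OHT and 40.9 to 44.2 TPM with EtOH. Ttr read 0 in every library. Of the 7 with a mean of at least 1 TPM, 3 had both OHT libraries over the EtOH pair, 1 had them under it and 3 overlapped. Hnf4a had the highest fold change of the 7, with 5.15 and 8.79 TPM with OHT and 3.29 and 2.68 TPM with EtOH (log2 fold change 0.97, limma adjusted p = 0.321). Sox7 went the other way, with 1.70 and 2.17 TPM with OHT and 2.73 and 2.56 TPM with EtOH (log2 fold change -0.31, limma adjusted p = 0.613). The OHT libraries lay farther apart (SD over all genes tested of their log2 difference 0.35) than the EtOH libraries (0.18). The part of these levels in the values of replication genes was not tested.

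Replication transcripts were mostly lower with OHT, by small amounts. Of the 39 genes, 36 had a negative log2 fold change (OHT minus EtOH, on the log2(TPM + 1) scale), 92.3% of them, against 46% of the 12029 genes tested. The OHT libraries did not share this equally. Below the EtOH mean lay 36 of the 39 in OHT replicate 1 and 25 in OHT replicate 2, for 63.8% and 31.4% of all genes tested. The medians of the 39 were -0.23 and -0.07, beside -0.09 and 0.14 over all genes tested. The OHT libraries both lay under the lower EtOH library for 22 genes (56.4%) and both over the higher one for none, where the background over all genes tested was 19.4% below and 23.1% above. Among the 6021 genes at least as abundant as the scarcest of the 39, the background was 24.7% below and 16.5% above. The median log2 fold change of the 39 was -0.14, with a range of -0.42 to 0.06, beside a median of 0.02 over all genes tested and of -0.02 over those 6021, of which 55.1% had a negative fold change. Their summed level was 4416 and 4952 TPM with OHT and 5111 and 5196 TPM with EtOH, which is 0.442% and 0.495% of all TPM with OHT and 0.511% and 0.520% with EtOH.

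No single replication gene passed the threshold of 0.05 for the limma p-value (Benjamini-Hochberg adjustment across every gene tested), which 5 of 12029 genes passed (0.0416%). At an unadjusted p under 0.05 stood 6 of the 39 (15.4%), all of them lower with OHT: Orc6, Pold1, Prim1, Rfc2, Cdc6 and Pcna. The background for that call in that direction was 4.46% of all genes tested, and 5.53% of the 6021 genes at least as abundant. None of the 39 was higher with OHT at that level, for a background of 6.02%. The count of 6 was 3 without a mean-variance trend, where Prim1, Cdc6 and Pcna no longer stood in it (background 3.72%), and 12 with no filter on low values (background 4.94%). With median of ratios scaling the count was 9 (background 7.48%) and with quantile normalization 7 (background 7.17%), and Pcna stood in neither. It was 0 without EtOH replicate 1 or 2 (background 1.19% and 1.01%), 14 without OHT replicate 1 (background 10.5%) and 32 without OHT replicate 2 (background 26.6%). The count that passed the adjusted threshold depended on the OHT library kept. Without OHT replicate 1, limma called 8 of the 39 lower (20.5%; background 6.43%) and 2 higher (5.13%; background 19.4%). Without OHT replicate 2 it called 22 lower (56.4%; background 15.8%) and none higher (background 6.43%). Both of these fits take the spread of the single OHT library left to be that of the EtOH pair. Without EtOH replicate 1 or 2 none was called (background 0.232% and 0.166% lower).

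**Figure D1:**
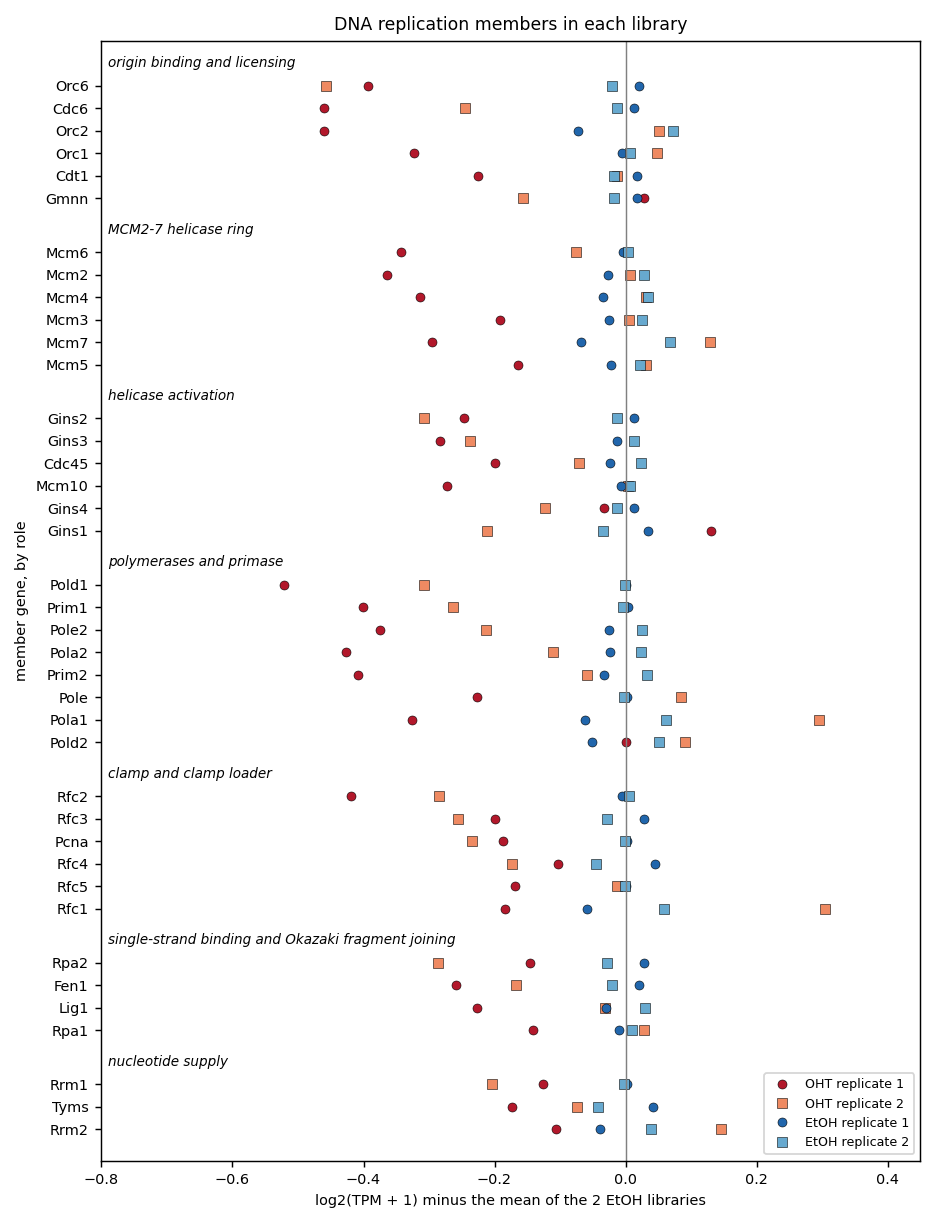
Each row is a replication gene, grouped by role. The points give log2(TPM + 1) in each of the 4 libraries minus the mean of the 2 EtOH libraries, with OHT in red and orange and EtOH in blue. Most OHT points lie left of 0, and for 22 of the 39 genes both lie left of both EtOH points.

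**Figure D2:**
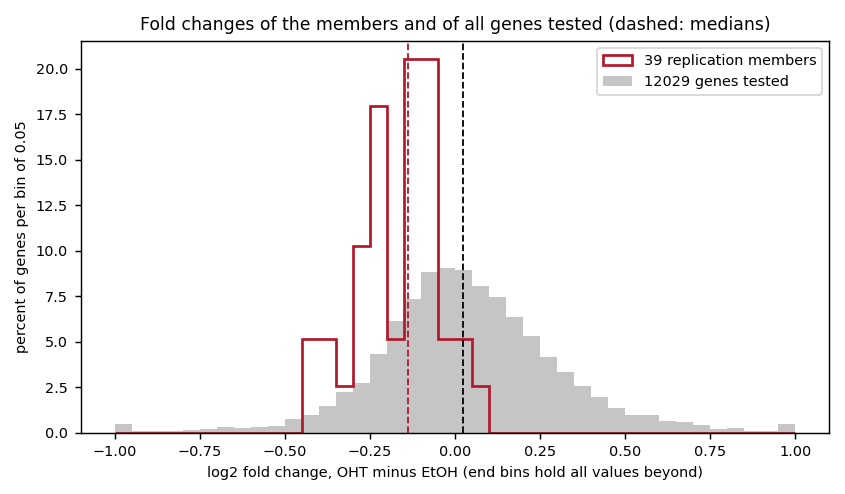
Distribution of log2 fold changes (OHT minus EtOH) of the 39 replication genes (red line) and of the 12029 genes tested (grey), as the percent of each set per bin of 0.05, with dashed lines at the medians of -0.14 and 0.02. The 39 genes lie between -0.42 and 0.06.

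Promoter sequence, which the choice of names did not use, was read next. The E2F motif was searched on both strands as TTTCCCGC, TTTGGCGC, TTTGCCGC or TTTCGCGC in promoter windows from 250 bases before to 50 bases after the annotated start (RefSeq, GRCm38.p6). Windows were at hand for 31 of the 39 genes, and 13 of these 31 (41.9%) held the motif in at least one window. Among the 9583 tested genes with a window, 5.02% did, and by window the shares were 35.1% of 37 for the replication genes and 4.14% of 12256 for the tested genes. The motif was found at 7 of the 18 genes with both OHT libraries under the EtOH pair (38.9%) and at 6 of the other 13 (46.2%). A match of letters is a description and shows no binding.

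The windows below belong to the 6 genes with the smallest p among those that hold the motif, and show how the matches sit around the start. They are written 5′ to 3′ on the gene's own strand, with the motif in capitals, and distances run from the start to the first base of the match. Pold1 (chr7:44548766-44549065, minus strand) has the match 39 bases after the start, Cdc6 (chr11:98907901-98908200, plus strand) 138 bases before it, Pole2 (chr12:69228141-69228440, minus strand) 10 bases after it and Gins3 (chr8:95633309-95633608, plus strand) 41 bases before it. Rfc3 (chr5:151651159-151651458, minus strand) has 2 matches, at 10 bases before the start and at the start itself, on opposite strands. Mcm6 (chr1:128359656-128359955, minus strand) has 3, of which those at 110 and 106 bases before the start overlap on opposite strands and the third lies 47 bases before it. The starts here are RefSeq starts and need not be the outermost start of a gene. By the gene coordinates given below, the whole Cdc6 window lies inside the gene. The matches of Rfc3 and Gins3 lie inside their genes too. Of the 13 genes that hold the motif, Lig1 and Mcm7, not shown, also have their whole window inside the gene.
Pold1: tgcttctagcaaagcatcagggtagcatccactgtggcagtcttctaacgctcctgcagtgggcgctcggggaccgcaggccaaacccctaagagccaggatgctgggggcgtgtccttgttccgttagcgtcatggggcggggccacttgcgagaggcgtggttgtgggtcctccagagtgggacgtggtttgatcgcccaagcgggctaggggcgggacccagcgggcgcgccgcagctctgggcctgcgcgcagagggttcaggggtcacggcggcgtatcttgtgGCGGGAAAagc
Cdc6: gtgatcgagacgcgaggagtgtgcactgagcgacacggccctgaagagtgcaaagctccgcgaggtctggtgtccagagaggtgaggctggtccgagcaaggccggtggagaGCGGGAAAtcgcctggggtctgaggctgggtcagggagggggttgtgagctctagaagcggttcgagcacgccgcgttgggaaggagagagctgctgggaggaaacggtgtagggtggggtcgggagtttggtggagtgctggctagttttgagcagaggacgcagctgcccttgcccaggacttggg
Pole2: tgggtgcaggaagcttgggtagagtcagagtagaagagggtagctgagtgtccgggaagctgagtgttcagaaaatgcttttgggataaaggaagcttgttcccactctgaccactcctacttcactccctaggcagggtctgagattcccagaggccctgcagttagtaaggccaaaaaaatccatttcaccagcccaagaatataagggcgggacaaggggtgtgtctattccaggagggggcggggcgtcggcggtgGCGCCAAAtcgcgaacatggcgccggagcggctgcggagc
Rfc3: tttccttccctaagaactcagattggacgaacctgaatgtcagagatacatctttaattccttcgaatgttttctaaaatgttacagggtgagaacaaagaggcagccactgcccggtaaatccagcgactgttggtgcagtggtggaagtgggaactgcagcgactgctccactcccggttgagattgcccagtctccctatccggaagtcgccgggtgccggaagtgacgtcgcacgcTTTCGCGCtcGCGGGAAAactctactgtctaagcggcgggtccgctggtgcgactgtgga
Mcm6: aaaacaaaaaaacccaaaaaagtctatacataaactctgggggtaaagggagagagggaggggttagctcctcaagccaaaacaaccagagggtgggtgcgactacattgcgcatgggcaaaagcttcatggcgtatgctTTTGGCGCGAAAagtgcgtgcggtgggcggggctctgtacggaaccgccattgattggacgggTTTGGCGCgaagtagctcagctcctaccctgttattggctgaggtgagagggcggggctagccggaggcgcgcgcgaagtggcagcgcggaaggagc
Gins3: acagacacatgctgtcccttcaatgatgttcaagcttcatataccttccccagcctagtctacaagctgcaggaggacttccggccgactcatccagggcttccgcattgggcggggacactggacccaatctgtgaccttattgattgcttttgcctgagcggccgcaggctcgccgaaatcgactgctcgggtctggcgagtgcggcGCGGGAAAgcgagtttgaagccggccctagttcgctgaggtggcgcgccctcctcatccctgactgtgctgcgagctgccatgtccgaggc

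In origin binding and licensing, all 6 fold changes were negative (median -0.17). For 2 genes (33.3%) the OHT libraries were wholly below the EtOH libraries. The background was 19.4% of all genes tested and 24.7% of those at least as abundant as the scarcest of the 39. With 6 genes such a share is coarse. Orc6, a subunit of the origin recognition complex (chr8:85299632-85308278, plus strand, GRCm38), had the smallest p of all 39 genes and read 162 and 155 TPM in the OHT libraries, against 217 and 211 TPM in the EtOH libraries (log2 fold change -0.42, SE 0.09, limma adjusted p = 0.262). Its means were 159 ± 5.02 TPM with OHT and 214 ± 4.24 TPM with EtOH (SD, n = 2 each), so the groups were separated by far more than either pair's spread, and both OHT libraries were low to about the same degree. Cdc6, the ATPase that helps load MCM2-7 (chr11:98907801-98923940, plus strand), read 33.4 and 38.95 TPM in the OHT libraries, against 46.8 and 45.9 TPM in the EtOH libraries (log2 fold change -0.35, SE 0.13, limma adjusted p = 0.436). Here too the groups did not overlap, with OHT replicate 1 the lower of the pair.

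The other licensing genes overlapped between the groups. Cdt1, the partner of CDC6 in loading, read 151 and 175 TPM in the OHT libraries, against 179 and 175 TPM in the EtOH libraries, and Gmnn, which encodes the CDT1 inhibitor geminin, read 142 and 125 TPM with OHT and 141 and 137 TPM with EtOH. The ratio of Cdt1 to Gmnn TPM was 1.07 and 1.41 with OHT and 1.27 and 1.27 with EtOH, so the OHT libraries stood on either side of the EtOH pair. Orc1 and Orc2, the ATPase and a core subunit of the origin recognition complex, were low in OHT replicate 1 alone. Orc1 read 38.9 and 50.6 TPM with OHT and 48.7 and 49.1 TPM with EtOH. Orc2 read 75.8 and 109 TPM with OHT and 99.6 and 110.2 TPM with EtOH, and 29.8% of its exon bases overlap Nif3l1 on the opposite strand, whose reads cannot be told apart if strand was not kept.

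The MCM2-7 ring was among the most abundant groups, and its 6 transcripts behaved alike: all were low in OHT replicate 1 and all but Mcm6 were at or above the EtOH mean in OHT replicate 2. Summed over the ring, the level was 1427 and 1752 TPM with OHT and 1691 and 1761 TPM with EtOH. As log2 differences from the EtOH mean, the medians of the 6 were -0.30 for OHT replicate 1 and 0.02 for the other. All genes tested were shifted the same way, with medians of -0.09 and 0.14 and with 63.8% and 31.4% of them below the EtOH mean. Mcm6 (chr1:128331590-128359664, minus strand) read 204 and 246 TPM in the OHT libraries, against 258 and 259.9 TPM in the EtOH libraries (log2 fold change -0.21, SE 0.12, limma adjusted p = 0.600). It was the one subunit gene whose groups did not overlap, with OHT the lower, which is 16.7% of the ring. The background was 19.4% of all genes tested and 24.7% of those at least as abundant as the scarcest replication gene. The ring was thus under the background on this measure. Mcm2 (chr6:88883474-88898780, minus strand) read 294 and 380.4 TPM in the OHT libraries, against 371 and 386 TPM in the EtOH libraries (log2 fold change -0.18, SE 0.14, limma adjusted p = 0.718). OHT replicate 2 lay between the EtOH libraries for Mcm2, and without OHT replicate 1 its fold change was 0.01. The fold changes of Mcm3, Mcm4, Mcm5 and Mcm7 were -0.09, -0.14, -0.07 and -0.08, with 95% intervals between the extremes of -0.47 for Mcm4 and 0.29 for Mcm7. Mcm7 has a near-identical processed pseudogene, Gm5487 (97.7% identity over 72.8% of the transcript), whose values were not used here.

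Among the helicase activators, all 6 fold changes were negative (median -0.14), and 4 genes (66.7%) had both OHT libraries below both EtOH libraries. The background was 19.4% of all genes tested and 24.7% of those at least as abundant. Gins2 and Gins3, subunits of the 4-part GINS complex, were the scarcest of the 39 transcripts. Gins2 (chr8:120578633-120589304, minus strand) read 15.3 and 14.7 TPM in the OHT libraries, against 18.6 and 18.2 TPM in the EtOH libraries (log2 fold change -0.28, SE 0.15, limma adjusted p = 0.578). Gins3 (chr8:95633453-95645060, plus strand) read 15.0 and 15.5 TPM in the OHT libraries, against 18.3 and 18.6 TPM in the EtOH libraries (log2 fold change -0.26, SE 0.15, limma adjusted p = 0.605). For both genes the 2 OHT libraries lay close together and below the EtOH pair, although 67.3% of the Gins2 exon bases overlap Gse1 on the opposite strand. Gins4 read 139 and 131 TPM with OHT and 144 and 141 TPM with EtOH, and Cdc45, which joins MCM2-7 and GINS in the running helicase, read 31.1 and 34.1 TPM with OHT and 35.3 and 36.5 TPM with EtOH. Both had separate groups by a narrow margin. Gins1 went opposite ways in the OHT pair, with 81.3 and 63.9 TPM with OHT and 76.0 and 72.4 TPM with EtOH, and Mcm10, which helps start the helicase, read 48.6 and 59.0 TPM with OHT and 58.6 and 59.2 TPM with EtOH.

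Polymerase and primase genes had the most negative median of the roles, -0.25 over 8 genes, with 5 (62.5%) wholly below the EtOH libraries and none above. The background for wholly below was 19.4% of all genes tested and 24.7% of those at least as abundant. Pold1, the catalytic subunit of polymerase delta (chr7:44532746-44548849, minus strand), read 36.0 and 41.9 TPM in the OHT libraries, against 52.1 and 52.0 TPM in the EtOH libraries (log2 fold change -0.41, SE 0.13, limma adjusted p = 0.366). Prim1, the catalytic primase subunit (chr10:128015168-128030037, plus strand), read 65.1 and 71.7 TPM in the OHT libraries, against 86.5 and 86.1 TPM in the EtOH libraries (log2 fold change -0.33, SE 0.11, limma adjusted p = 0.388). The EtOH libraries of both genes were nearly equal, and both OHT libraries were low, replicate 1 more so. Pole2, an accessory subunit of polymerase epsilon (chr12:69201773-69228195, minus strand), read 25.4 and 28.5 TPM in the OHT libraries, against 32.6 and 33.8 TPM in the EtOH libraries (log2 fold change -0.29, SE 0.13, limma adjusted p = 0.520). Pola2, the regulatory subunit of polymerase alpha (chr19:5940542-5964202, minus strand), read 24.5 and 30.8 TPM in the OHT libraries, against 32.7 and 33.8 TPM in the EtOH libraries (log2 fold change -0.27, SE 0.15, limma adjusted p = 0.619). Prim2, the large primase subunit (chr1:33453810-33669795, minus strand), read 22.0 and 28.3 TPM in the OHT libraries, against 28.8 and 30.2 TPM in the EtOH libraries (log2 fold change -0.23, SE 0.16, limma adjusted p = 0.688). In all 3 the groups were separate but OHT replicate 2 lay close to the EtOH libraries for Pola2 and Prim2.

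The remaining polymerase genes overlapped. Pola1, the catalytic subunit of polymerase alpha, spread widest within OHT, with 40.1 and 62.1 TPM with OHT and 48.3 and 52.7 TPM with EtOH (log2 fold change -0.02, 95% interval -0.54 to 0.51). Pole, the catalytic subunit of polymerase epsilon, read 30.7 and 38.4 TPM with OHT and 36.2 and 36.0 TPM with EtOH. Pold2, the second subunit of polymerase delta, was one of 3 replication genes with a positive fold change and read 92.7 and 98.8 TPM with OHT and 89.4 and 96.1 TPM with EtOH (0.05, 95% interval -0.21 to 0.30). The ratio of Pold1 to Pold2 TPM was 0.388 and 0.424 with OHT and 0.583 and 0.541 with EtOH, so Pold1 was lower relative to Pold2 in both OHT libraries, and the ratios of the groups did not overlap.

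The clamp and its loader had a median of -0.19 in OHT replicate 1 and -0.20 in OHT replicate 2, beside -0.09 and 0.14 over all genes tested. By gene the 2 libraries were less alike, as for Rfc1 (-0.18 and 0.30). Of the 6 genes, 5 (83.3%) were wholly below the EtOH libraries. The background was 19.4% of all genes tested and 24.7% of those at least as abundant. Pcna, the sliding clamp and the most abundant of the 39 transcripts (chr2:132249162-132253314, minus strand), read 407 and 394 TPM in the OHT libraries, against 464 and 463 TPM in the EtOH libraries (log2 fold change -0.21, SE 0.08, limma adjusted p = 0.457). Its means were 401 ± 9.17 TPM with OHT and 464 ± 0.654 TPM with EtOH (SD, n = 2 each). A near-identical processed pseudogene, Pcna-ps2 (99.2% identity over 51.4% of the transcript), has no value used here, and its reads cannot all be told apart from those of Pcna. Rfc2 (chr5:134581366-134601805, plus strand), a small subunit of the loader, read 29.3 and 32.2 TPM in the OHT libraries, against 39.4 and 39.7 TPM in the EtOH libraries (log2 fold change -0.35, SE 0.13, limma adjusted p = 0.429). Rfc3 (chr5:151642756-151651242, minus strand) read 57.1 and 54.9 TPM in the OHT libraries, against 67.02 and 64.4 TPM in the EtOH libraries (log2 fold change -0.23, SE 0.11, limma adjusted p = 0.538). Rfc4 (chr16:23113943-23127737, minus strand) read 62.6 and 59.5 TPM in the OHT libraries, against 69.4 and 65.2 TPM in the EtOH libraries (log2 fold change -0.14, SE 0.11, limma adjusted p = 0.731). The OHT libraries of all 3 small subunits were below the EtOH libraries, by least for Rfc4. Rfc5 read 102 and 114 TPM with OHT and 115 and 115 TPM with EtOH, with OHT replicate 2 just under the EtOH pair. Genes on the opposite strand overlap 15.1% of the Rfc2 exon bases (Lat2), 12.7% for Rfc4 (Eif4a2) and 10.7% for Rfc5 (Wsb2). Rfc1, the large subunit, read 60.1 and 84.8 TPM with OHT and 65.7 and 71.4 TPM with EtOH (log2 fold change 0.06, 95% interval -0.38 to 0.49), low in one OHT library and high in the other.

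Single-strand binding and Okazaki fragment genes had a median of -0.17, with 3 of 4 (75%) wholly below the EtOH libraries. The background was 19.4% of all genes tested and 24.7% of those at least as abundant. Rpa2, the middle subunit of the single-strand binding protein RPA (chr4:132768332-132778752, plus strand), read 112 and 101 TPM in the OHT libraries, against 126 and 121 TPM in the EtOH libraries (log2 fold change -0.22, SE 0.10, limma adjusted p = 0.543). Fen1, the flap nuclease that trims Okazaki fragments (chr19:10199132-10204169, minus strand), read 62.6 and 66.8 TPM in the OHT libraries, against 76.2 and 74.1 TPM in the EtOH libraries (log2 fold change -0.21, SE 0.11, limma adjusted p = 0.555). Lig1, the ligase that seals them (chr7:13277283-13311433, plus strand), read 165 and 189 TPM in the OHT libraries, against 189.6 and 198 TPM in the EtOH libraries (log2 fold change -0.13, SE 0.11, limma adjusted p = 0.740). The OHT libraries lay below the EtOH libraries for Rpa2 and Fen1, though for Rpa2 the OHT pair itself spread as widely as the gap. OHT replicate 2 was just under EtOH replicate 1 for Lig1. An antisense transcript, Gm10143, covers 78.8% of the Fen1 exon bases. Rpa1, the large subunit, read 139 and 156 TPM with OHT and 152 and 154 TPM with EtOH, with overlapping groups.

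In nucleotide supply, the pair of subunit genes of ribonucleotide reductase, the enzyme that makes deoxynucleotides, had fold changes of -0.17 and 0.02. Rrm1, the large subunit (chr7:102441695-102469771, plus strand), read 127 and 121 TPM in the OHT libraries, against 139 and 139 TPM in the EtOH libraries (log2 fold change -0.17, SE 0.10, limma adjusted p = 0.619), with separate groups. Rrm2, the small subunit that accumulates in S phase, read 264 and 315 TPM with OHT and 277 and 292 TPM with EtOH (log2 fold change 0.02, 95% interval -0.26 to 0.30), with overlapping groups. The ratio of Rrm2 to Rrm1 was 2.07 and 2.61 with OHT and 1.99 and 2.10 with EtOH, and these ranges overlapped. Tyms, the thymidylate synthase (chr5:30058202-30073617, minus strand), read 129.8 and 139 TPM in the OHT libraries, against 151 and 142 TPM in the EtOH libraries (log2 fold change -0.12, SE 0.10, limma adjusted p = 0.735), a small gap.

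TPM is corrected for length, so levels are set side by side between genes here, with limits. The values still differed between libraries by transcript length, as given below. Gse1 overlaps 67.3% of the Gins2 exon bases on the opposite strand. It read 20.3 and 36.0 TPM with OHT and 20.1 and 22.7 TPM with EtOH, so the Gins2 level is uncertain if strand was not kept. With OHT the means ran from 400.7 TPM for Pcna down to 15.0 TPM for Gins2, and with EtOH from 464 to 18.4 TPM for the same genes. Pcna, Mcm5, Mcm2 and Rrm2 held the top 4 places in that order in both groups, and Gins3 and Gins2 the last 2, although Gins2 and Gins3 did not differ beyond their spread. The subunits of the MCM ring stayed within a range of 2.09 to 2.32 (highest over lowest) in the OHT libraries and 2.07 to 2.11 in the EtOH libraries, with Mcm5 highest and Mcm4 lowest in all 4. The subunits of GINS, which also form a complex with one copy of each, ranged over 8.93 to 9.29 with OHT and 7.76 to 7.88 with EtOH, with Gins4 always highest. In the clamp loader Rfc5 was highest and Rfc2 lowest in every library, at a range of 3.50 and 3.54 with OHT and 2.93 and 2.91 with EtOH. In polymerase alpha-primase the order Prim1, Pola1, Pola2, Prim2 held in all 4 libraries. These are levels of mRNA, and protein was not measured.

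**Figure D3:**
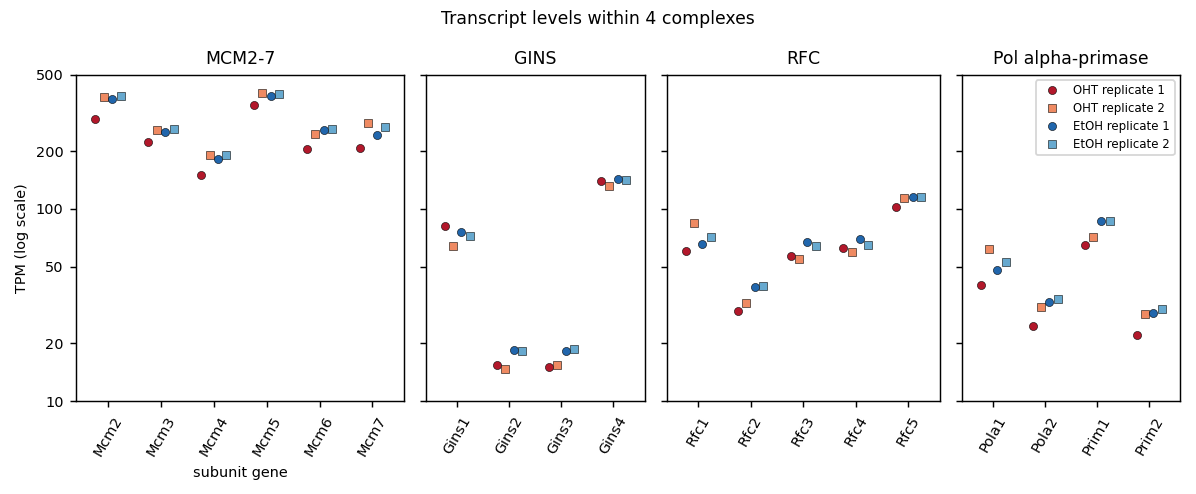
TPM (log scale) of the subunit genes of the MCM2-7 ring, GINS, the clamp loader RFC and polymerase alpha-primase, 1 point per library with OHT left of EtOH for each gene. MCM transcripts lie within a factor of 2.32 of each other in each library, whereas GINS transcripts span up to 9.29.

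The OHT libraries differed from each other by transcript length. Across the 39 genes, the log2 difference between OHT replicates 1 and 2 ran against log2 length of the longest annotated transcript (Pearson r = -0.62, Spearman rho = -0.51), and that between EtOH replicates 1 and 2 did so less steeply (r = -0.29, rho = -0.26). Over 12016 tested genes the same relations were r = -0.53 for OHT and r = -0.27 for EtOH. The genes within a library share its depth and its RNA, so these are descriptions. Of the 19 members longer than 3128 bases, all 19 were lower than the EtOH mean in OHT replicate 1 and 9 in OHT replicate 2, with medians of -0.25 and 0.00. Among all genes of that length, 72.4% and 19.6% were lower, with medians of -0.15 and 0.23. Of the 19 shorter ones, 16 were lower in OHT replicate 1 and 15 in OHT replicate 2, with medians of -0.20 and -0.16. Among all genes shorter than that, 53.9% and 44.7% were lower, with medians of -0.03 and 0.04. Both OHT libraries were below both EtOH libraries for 12 of the shorter (63.2%, background among all genes under that length 26.2%) and 9 of the longer (47.4%, background 13.3%). The fold change itself had r = -0.02 with log2 length across the 39.

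Once the trends of the libraries with transcript length and GC content were removed, the medians of the 39 replication genes in the OHT libraries came closer together. They were -0.17 (OHT replicate 1) and -0.19 (OHT replicate 2), where all genes tested stood at -0.01 and 0.00. The trend-removed fold change was negative for 36 of the 39 (background 51.6%). The MCM ring, split between the libraries in the deposited values, stood at -0.19 and -0.14, and 5 of its 6 genes had both OHT libraries below both EtOH libraries. The roles were not all more even: the clamp and its loader stood at -0.08 and -0.19, with 4 of 6 genes wholly below, and nucleotide supply at -0.01 and -0.21, with none of 3. Rrm1 in particular read 0.06 in OHT replicate 1 and -0.43 in OHT replicate 2, where the deposited values gave -0.13 and -0.20. Rfc3 moved apart too, from -0.20 and -0.26 to -0.04 and -0.28, and Gins2 from -0.25 and -0.31 to -0.20 and -0.52. Other genes came closer together, as Mcm6 did, from -0.34 and -0.08 to -0.20 and -0.26. Length was that of the longest annotated transcript, and whether these cells make that form was not tested. The counts that follow carry the same limit. Over the 39 genes, 27 were wholly below (69.2%; background 28.5%). In limma, 18 had an unadjusted p under 0.05 and a negative fold change (background 11.7%) and none a positive one (background 10.6%). The adjusted threshold was passed by 1, Pold1 (log2 fold change -0.56, adjusted p = 0.0406; background 0.449% lower). That single call was not made on the deposited values, and Orc6 stood next with an adjusted p of 0.0634 in limma.

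**Figure D4:**
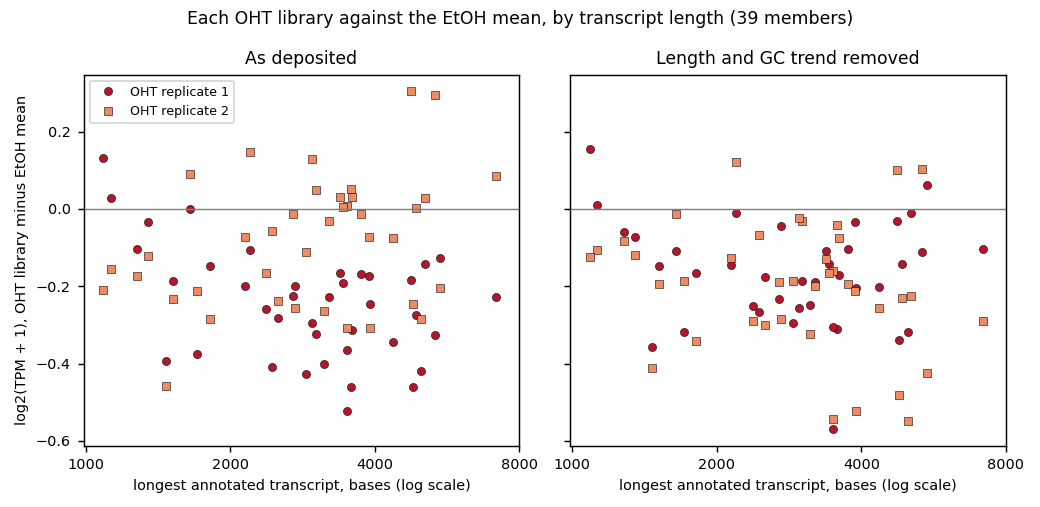
Log2(TPM + 1) of each OHT library minus the EtOH mean, against the length of the longest annotated transcript (log scale), for the 39 replication genes as deposited (left) and with the length and GC trends removed (right). On the left the long genes lie lower in replicate 1 than in replicate 2, with medians of -0.25 and 0.00, and on the right most points of both libraries lie below 0.

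Other genes of DNA replication also had mostly negative fold changes. From a list of 77 further genes (origin firing, fork and polymerase factors, chromatin assembly, nucleotide supply, and E2F with the pocket proteins), all were tested, none passed the adjusted threshold, and 58 had a negative fold change (75.3%, for the background of 46%; median -0.11). Both OHT libraries were below both EtOH libraries for 24 (31.2%, for a background of 19.4%) and above for 2 (Rrm2b and Top1, named after their values were seen). The 24 were spread unevenly over the lists. They were 9 of 16 genes of nucleotide supply, 4 of 10 of chromatin assembly and 8 of 23 fork and polymerase factors. Among origin and firing factors they were 1 of 15 (6.67%), and among E2F and pocket protein genes 2 of 13 (15.4%), both under the background. At an unadjusted limma p under 0.05 stood 7 of the 77, all lower with OHT (9.09%, for a background of 4.46%). Ccne2, a cyclin E gene that drives S phase entry, read 14.4 and 15.4 TPM in the OHT libraries, against 21.6 and 23.0 TPM in the EtOH libraries (log2 fold change -0.55, SE 0.15, limma adjusted p = 0.314). Slbp, which encodes the protein that binds histone mRNA stem loops in S phase, read 99.6 and 93.1 TPM in the OHT libraries, against 126 and 123 TPM in the EtOH libraries (log2 fold change -0.37, SE 0.10, limma adjusted p = 0.318). Tipin, of the fork protection complex, read 342 and 345 TPM in the OHT libraries, against 431 and 405 TPM in the EtOH libraries (log2 fold change -0.28, SE 0.09, limma adjusted p = 0.362). In all 3 genes the OHT libraries lay close together, well below the EtOH pair.

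The next in order were Tk1, Dscc1, Asf1a and Dut. Tk1, the thymidine kinase of the salvage pathway, read 34.1 and 34.1 TPM with OHT and 44.6 and 43.2 TPM with EtOH (log2 fold change -0.35, SE 0.12, limma adjusted p = 0.397). Dscc1, of an alternative clamp loader, read 13.6 and 12.9 TPM with OHT and 18.2 and 17.9 TPM with EtOH (log2 fold change -0.42, SE 0.15, limma adjusted p = 0.428). Both had OHT libraries nearly equal to each other. Asf1a, a histone chaperone, read 108 and 107 TPM with OHT and 127 and 128 TPM with EtOH (log2 fold change -0.25, SE 0.09, limma adjusted p = 0.448). Dut, the dUTPase that keeps uracil out of DNA, read 314 and 258 TPM with OHT and 363 and 344 TPM with EtOH (log2 fold change -0.31, SE 0.12, limma adjusted p = 0.451). The OHT libraries of these genes also lay below the EtOH libraries, as did those of Impdh2, of guanine nucleotide synthesis, which read 307 and 324 TPM with OHT and 369 and 360.3 TPM with EtOH (log2 fold change -0.21, SE 0.09, limma adjusted p = 0.480).

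The 13 E2F and pocket protein genes themselves showed no common direction, with 7 negative fold changes, a median of -0.03 and none at an unadjusted p under 0.05 in limma. E2f1, an activator, named after its values were seen, read 22.1 and 25.1 TPM with OHT and 22.5 and 21.9 TPM with EtOH, with overlapping groups. By list, the median was -0.05 for 15 origin and firing factors, -0.11 for 23 fork and polymerase factors, -0.18 for 10 chromatin assembly genes and -0.19 for 16 genes of nucleotide supply. In OHT replicate 1 all 15 origin and firing factors were lower than the EtOH mean, and in OHT replicate 2 only 3 were, for shares over all genes tested of 63.8% and 31.4%.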

How the data were processed

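Poly(A) RNA was measured in 2 OHT and 2 EtOH libraries. The deposited values are TPM, made by the authors with steps that included Trim Galore and Salmon on GRCm38 (mm10), per the submitters' processing notes; the annotation release is not given in the sources used here. TPM is corrected for transcript length and sums to 1000000 per library, so depth and counting error are unknown. A further 2 columns of per-sample values, which match none of these libraries, were not used. Gene IDs were matched to GENCODE mouse release 21 (22213 without and 11 with the version) for coordinates, overlaps, copies (blastn 2.17.0) and lengths.

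Groups were compared with limma 3.58.1 (R 4.3.3) on log2(TPM + 1) for genes averaging 1 TPM or more, two-sided, with a mean-variance trend (residual degrees of freedom 2, prior 4.01) and Benjamini-Hochberg adjustment over all genes tested at 0.05. The fit was tested on simulated data. A fold change on this scale understates the change of scarce genes. An exact permutation test of 2 against 2 cannot go below p = 0.333, so none was run. As an alternative, each library's trend with log2 length and GC content (natural splines, 5 degrees of freedom each) was removed. Other alternatives changed the pseudocount, filter, scaling, moderation, replicate block or libraries kept. The members and lists were chosen with earlier results of these data known. The 20 members and 8 other replication genes with the smallest p are given with full values, and promoters for the first 6 of those members that hold the motif.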

Additional observations from a re-analysis of the deposited data

How the results depend on the processing

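With 2 libraries a group and an unknown depth, differences of the size seen here rest on few values. The median log2 fold change of the 39 replication genes stayed negative in all 16 alternatives. It ranged from -0.23 (without OHT replicate 2) to -0.07 (without OHT replicate 1) when a library was left out. The number of genes past the adjusted threshold in limma, 5 of all tested, was 0 with no filter on low values (2228 at an unadjusted p under 0.05), 3 with median of ratios scaling, with quantile normalization and without a mean-variance trend, 127 with the length and GC trend removed, and 30 to 3104 with a library left out. Among the 39 it was 1 with the trend removed and 0 to 22 with a library left out. Both OHT libraries below both EtOH libraries was counted for 22, for 29 with median of ratios scaling (25.5% of all genes), for 27 with the trend removed (28.5%), and for 23 to 36 with a library left out. With a single library left in a group that criterion is looser, and the share of all genes that met it was 26.4% without OHT replicate 1, 56.6% without OHT replicate 2, 26.7% without EtOH replicate 1 and 23.7% without EtOH replicate 2. The log2 fold change of Mcm2 with a library left out ranged from -0.36 (without OHT replicate 2) to 0.0068 (without OHT replicate 1), and the cause of the reversal was not tested.

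With the replicate block, limma called 474 genes and 1 of the 39 (Orc6; background 1.77% lower), and with the block and the trend removed 1077 genes and 5 of the 39 (background 4.68% lower). The labels give only a number as a pairing: deviations of same-numbered libraries correlated at r = 0.290 across genes, and at 0.167 with the trend removed.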

Other observations

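With the length and GC trends removed, the OHT libraries both lay under the lower EtOH library for 9 of 10 chromatin assembly genes and 12 of 16 further genes of nucleotide supply, for a background of 28.5% of all genes tested. The same count was 6 of 15 origin and firing factors and 11 of 23 fork and polymerase factors, and none of the 3 nucleotide supply genes among the 39. Among the 13 E2F and pocket protein genes that number was 4, with 3 above. Rrm2b, the p53-induced small subunit of ribonucleotide reductase, read 4.11 and 6.15 TPM with OHT and 3.63 and 3.03 TPM with EtOH (log2 fold change 0.48, SE 0.23, limma adjusted p = 0.531), chosen after its values were seen. The OHT libraries of this gene lay above the EtOH libraries.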
